A study of Solanum tuberosum with 12 samples.

Results

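The prediction list of potato miRNAs holds 59 distinct mature sequences of 21 nt, and 42 of them at 52 loci are described here. They are the 21 nt sequences that remained after 12 sequences were left out by identifier, 3 by the read number in their identifier, and 2 because they lay within 3 ungapped differences of PotatoMir1003902286 or PotatoMir1005868687. The 2 sequences left out by distance were 0 and 1 differences away, and the nearest sequence kept, PotatoMir1005303009, was 10 away, so the choice did not depend on the limit of 3. Since the sequences left out by name include the most abundant 21 nt miRNAs of the list, the read level of the 42 members against the other 21 nt sequences was set by the choice and is given as a description. The whole list holds 222 distinct mature sequences at 324 loci.

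The 12 libraries came from Solanum tuberosum group Andigena, clone ADG573, a single clone that was propagated in vitro, grown in a glasshouse under long days (LD) and then moved to LD or short-day (SD) cabinets. Leaves were taken from LD and from SD plants, and stolons and swollen stolons from SD plants, with 3 biological replicates in each of these 4 groups. The labels give 8 days after the move for every group, whereas the methods of the study give later days for stolon. Reads of all libraries were pooled before the prediction, and in the deposited list each sequence carries a single read number over the 12 libraries. Read numbers by tissue or library were not used here. The depth of a library is therefore unknown, read numbers have no error between replicates, and no comparison of tissues or day lengths was made.

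Plant miRNAs are cut by Dicer-like 1 from the stem of a hairpin precursor as a duplex with 2 nt 3′ overhangs. An Argonaute protein then takes up the mature miRNA and finds mRNAs by pairing with it, and the partner in the duplex, called the star sequence, seldom accumulates. In Arabidopsis, the Argonaute protein that acts in most miRNA pathways prefers small RNAs with a uracil at the 5′ end, and small RNAs with a 5′ adenine go to other Argonaute proteins. The first base, the arm of the hairpin and the pairing between the strands are therefore usual descriptors of a predicted miRNA. The deposited list writes T in place of uracil, and the same letters are used here.

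The 6 members with the most reads are shown first, because they carry most of the reads, with the seed (bases 2 to 8) in capitals and each sequence from 5′ to 3′.
PotatoMir1005244514 (miR162): tCGATAAAcctctgcatccag
PotatoMir1005875292 (miR156): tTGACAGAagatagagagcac
PotatoMir1004465615 (no family name): gGGTGTTGgtcgattaagaca
PotatoMir1004878382 (miR4376): tACGCAGGagagatgatgctg
PotatoMir1002894021 (no family name): aTGATGTAtagcaaagagcct
PotatoMir1005931998 (no family name): tTGGACTGaagggttcccttc
Family names are those that the authors gave after a search of known plant miRNAs, and they were used only as names.

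The members had 32550 reads, counted once per distinct sequence, or 3.41% (95% Wilson interval 3.38 to 3.45%) of the list's 954147 reads and 3.64% of those of all 21 nt sequences. PotatoMir1005244514, a member of the miR162 family that regulates the Dicer-like 1 mRNA, had 19366 reads (95% Poisson interval 19094 to 19641). It alone held 59.5% of the members' reads, and 13184 reads remained without it. Both kinds of interval treat reads as independent and describe counting error alone. PCR copies of a molecule were not told apart by identifiers, so the intervals of reads, here and below, may be too narrow. They hold no spread between libraries.

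The next sequences in the order had counting intervals that did not overlap. PotatoMir1005875292 of the miR156 family, which controls SPL transcription factors and the change from the juvenile to the adult phase, had 3670 reads (3552 to 3791). PotatoMir1004465615, without a family name, had 3237 reads (3126 to 3350). PotatoMir1004878382 of the miR4376 family, known in tomato to act on a calcium ATPase mRNA, had 1952 reads (1866 to 2041), and PotatoMir1002894021, without a family name, had 1130 reads (1065 to 1198). These 5 sequences with 1000 or more reads held 90.2% of the members' reads.

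Below them, the members formed a continuous series down to single reads. There were 11 members with 100 reads or more but under 1000, 14 with 10 to 99, 6 with 5 to 9 and 6 with 1 to 4 reads. The median was 50.5 reads, compared with 17.5 over the distinct sequences of the whole list, 11 over the 121 sequences of 24 nt and 101 over the 18 sequences of 22 nt. Neighbours in the lower part of the order were not separated by counting error, since 8 reads have a Poisson interval of 3.45 to 15.8 and 1 read has an interval of 0.0253 to 5.57. The first in alphabetical order of the 3 members with 1 read was PotatoMir1000755818 (aAGCTGAAcgaaaagagaaga), whose precursor lay on superscaffold PGSC0003DMB000000528 from 119438 to 119522, minus strand.

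**Figure D1:**
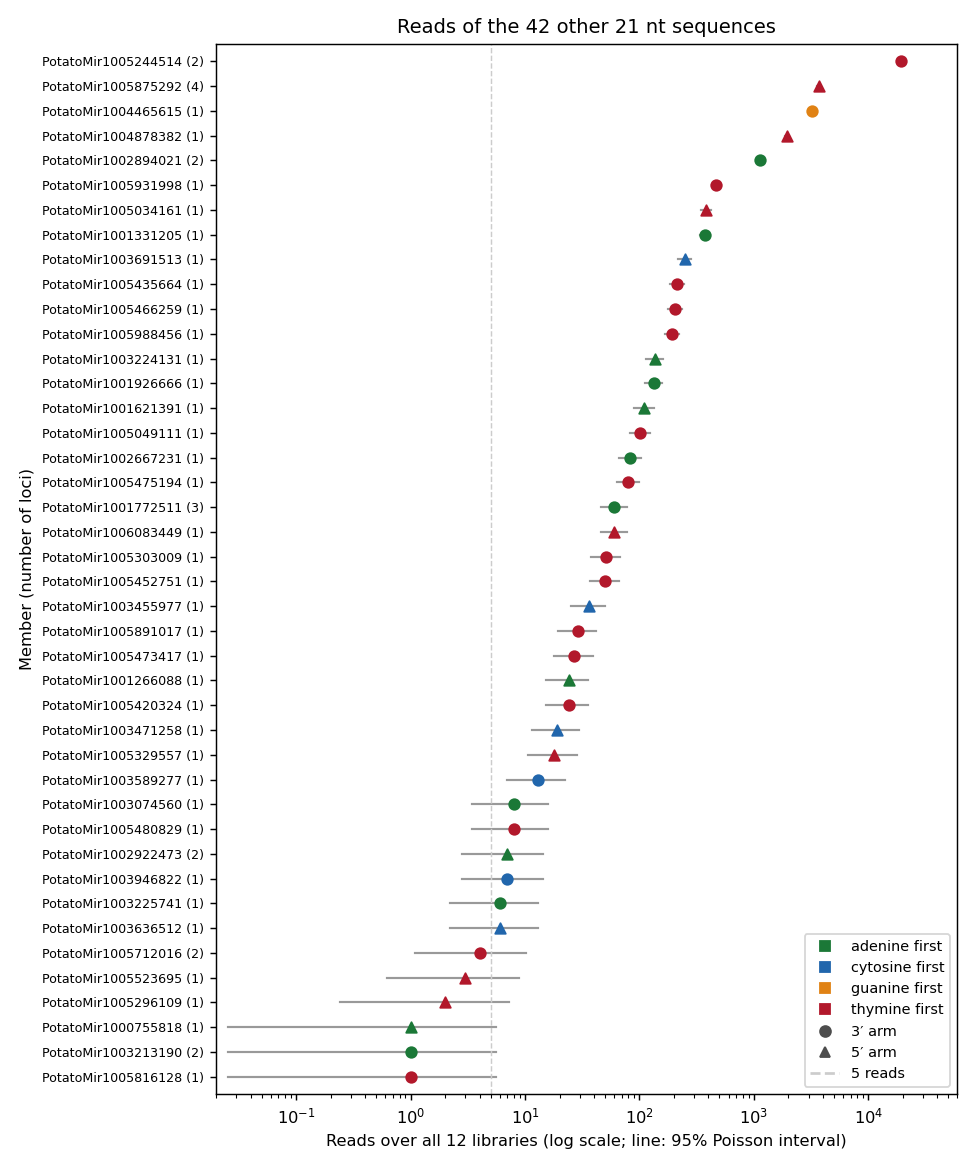
Reads of each member over all 12 libraries on a log axis, with 95% Poisson intervals as lines, the first base as colour, the arm as marker shape and the number of loci in parentheses. PotatoMir1005244514 stands at 19366 reads, the next 4 members lie between 1130 and 3670, and the intervals of the members with 5 to 9 reads overlap each other.

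Of the 42 members, 17 carried the name of a conserved family, and 12 families were represented. These 17 sequences had 26501 reads, or 81.4% of the members' reads, with a median of 110 reads and a range from 8 to 19366. The 25 members without a name had 6049 reads. Of these, 19 had at least 5 reads, with a median of 36 and a range from 6 to 3237, and 6 had 1 to 4 reads. Sequences under 5 reads were left out before families were named, so these 6 lack a name by construction.

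At the 5′ end, T was the most frequent base. It was found at 22 of the 42 members (52.4%, 95% Wilson interval 37.7 to 66.6%), followed by A at 13 (31.0%), C at 6 (14.3%) and G at 1 (2.38%). Weighted by reads the share of T was 82.7%, or 57.2% without PotatoMir1005244514, and the single G sequence, PotatoMir1004465615, had 9.94% of the reads. The share of T by reads was higher in the whole list (98.8%) and in the other 21 nt sequences (99.9%). Both values rest largely on the abundant sequences that the choice left out. Over all 222 distinct sequences of the list T stood first in 42.3% and A in 45.9%. Among the 24 nt sequences A was first in 81 of 121 (66.9%, 58.2 to 74.7%) and T in 30, and among the 17 other 21 nt sequences T was first in 12. T was also first in 15 of the 18 sequences of 22 nt and in 6 of the 10 of 20 nt. A larger share of T than among the 24 nt sequences was therefore not particular to the members. These counts were not tested, because the members were chosen with earlier results known.

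**Figure D2:**
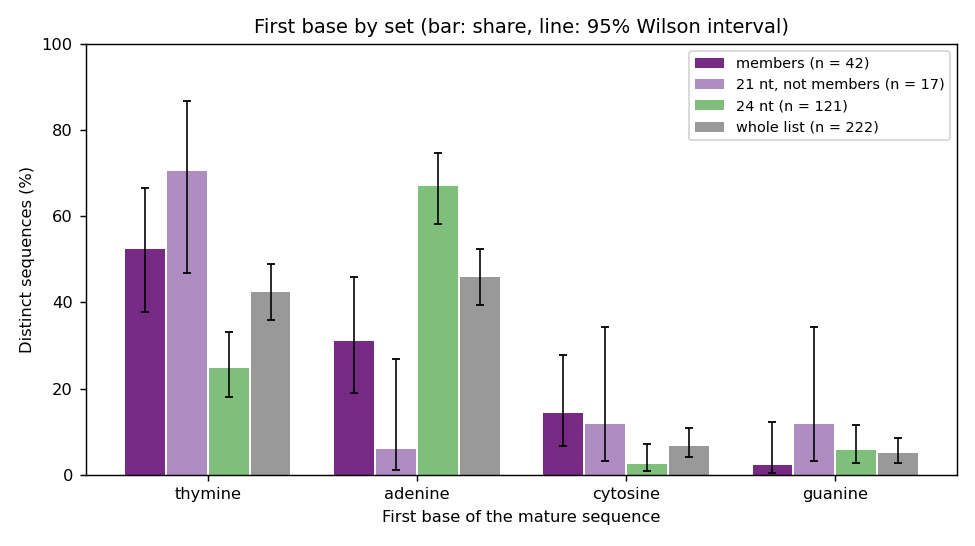
Share of distinct sequences that start with each base, as bars with 95% Wilson intervals, for the members, the other 21 nt sequences, the 24 nt sequences and the whole list. Thymine stands first in 52.4% of the members and adenine in 66.9% of the 24 nt sequences.

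The first base was also counted for members with and without a family name, with no test of the difference. Of the 17 named sequences 12 began with T, 4 with A and 1 with C, whereas of the 25 without a name 10 began with T, 9 with A, 5 with C and 1 with G. At the 3′ end, C was the most frequent base, at 16 of the 42 members, and C was also most frequent at position 20 (17 members) and position 19 (16 members, beside 15 with A). The content of G and C ranged from 19.05 to 61.9% with a median of 42.9%. The median was 52.4% over the other 21 nt sequences, 40.9% over the whole list and 37.5% over the 24 nt sequences. Among the members, the lowest value was shared by PotatoMir1003946822 and PotatoMir1003213190, and the highest by PotatoMir1003691513 and PotatoMir1005475194.

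The mature sequence lay on the 3′ arm of the deposited precursor at 32 of 52 loci (61.5%, 95% Wilson interval 48.0 to 73.5%) and on the 5′ arm at 20. Intervals over loci, here and below, treat the loci as independent. Copies of a member share its mature sequence, so these intervals may be too narrow. No member had loci of both arms, so that 26 distinct sequences belonged to the 3′ arm and 16 to the 5′ arm. In the whole list the 3′ arm was found at 157 of 324 loci (48.5%), and for the other 21 nt sequences at 28 of 48 (58.3%). Sequences with T first were on the 3′ arm in 15 of 22 cases, those with A first in 8 of 13 and those with C first in 2 of 6. Over all members it was 26 of 42. These groups are small, and their difference was not tested. By reads, 79.5% belonged to the 3′ arm, and 49.4% without PotatoMir1005244514. The share by reads was higher in the whole list (95.5%) and in the other 21 nt sequences (97.0%), which include the abundant sequences left out by the choice.

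The precursors had a median length of 84 nt over the 52 loci, with a range from 68 to 177 nt. The median was 85 nt over the whole list, 72 nt for the other 21 nt sequences and 108 nt for the 24 nt sequences. The shortest was that of PotatoMir1003691513 (miR477) and the longest that of PotatoMir1005931998, where 135 nt separated the mature and the star sequence. Next came PotatoMir1003213190 with 122 nt between the strands and PotatoMir1004465615 with 108 nt. With RNAfold at 37 °C, the minimum free energy ranged from -19.60 kcal/mol for PotatoMir1006083449 to -140.20 kcal/mol for PotatoMir1003213190. Per 100 nt the median was -44.68 kcal/mol, against -42.96 over the whole list and -41.30 over the 24 nt sequences, and the 2 extremes were the same sequences, at -25.13 and -85.49.

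**Figure D3:**
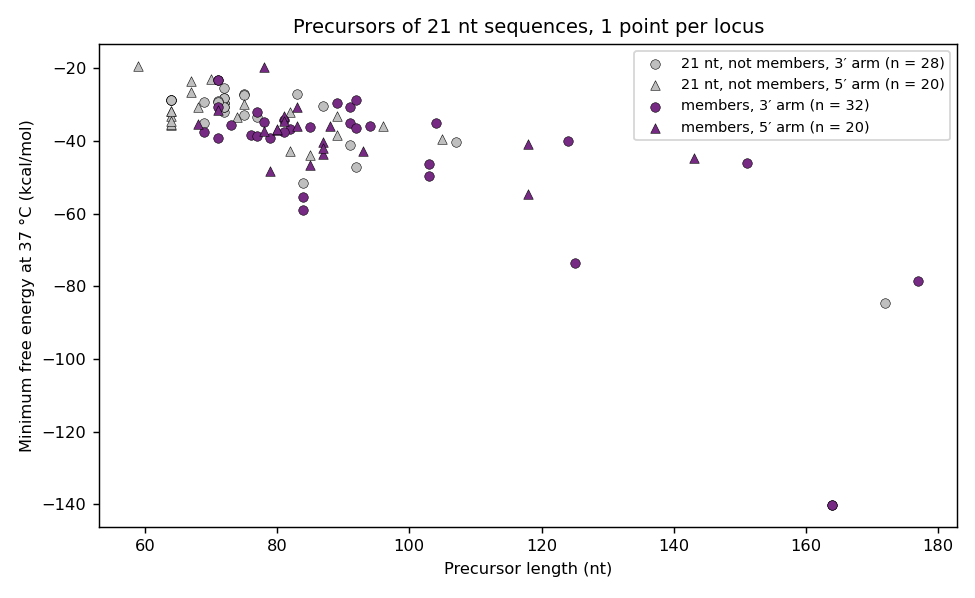
Minimum free energy at 37 °C (kcal/mol) against precursor length (nt) for every 21 nt locus, with members in purple and other 21 nt sequences in grey, and circles for the 3′ and triangles for the 5′ arm. Both loci of PotatoMir1003213190 lie on 1 point at 164 nt and -140.20 kcal/mol, far below the other loci.

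The pairing between the strands was read from the same folds, over mature bases 1 to 19, since the last 2 bases form the overhang. The limits were 4 mismatches and 1 asymmetric bulge, which could be up to 2 nt long, and a duplex within them was found at 48 of 52 loci (92.3%, 95% Wilson interval 81.8 to 97.0%). In the whole list this was the case at 269 of 324 loci, and for the other 21 nt sequences at 47 of 48. The larger share than in the whole list was therefore not particular to the members. The authors had selected all loci from their own folds. The 4 loci outside these limits were those of PotatoMir1006083449 with 6 mismatches, PotatoMir1003589277 and PotatoMir1005816128 with 2 bulges each, and 1 of the 2 loci of PotatoMir1002922473 with 3 bulges. All 23 loci of the named members were within the limits. With G:U pairs counted as mismatches, 43 of 52 loci (82.7%) remained, and those lost included the abundant PotatoMir1004465615, with 3 G:U pairs and 4 mismatches.

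All 19 bases were paired at 10 loci, 1 of which (PotatoMir1001331205) had a bulge, and 11 loci had no mismatch. The 10 loci include those of PotatoMir1005712016 and PotatoMir1003213190, each listed on both strands of 1 place, where full pairing follows from the listing. Among the 10 loci, PotatoMir1005466259 of the miR171 family, was paired through 6 G:U pairs, the highest number among the 52 loci. No asymmetric bulge was found at 34 loci and 1 bulge at 15. The star sequence read from the fold was 21 nt at 37 loci, 22 nt at 11 and 20 nt at 4. It thus had the length of the mature sequence at 71.2% of the members' loci. That share was 68.5% in the whole list and 87.5% for the other 21 nt sequences. The 22 nt star sequences included all 4 loci of PotatoMir1005875292 (miR156), both members of miR477, the miR393 sequence and 1 member of miR398.

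Along the duplex, the first base of the mature sequence was paired least often, at 39 of 52 loci (95% Wilson interval 61.8 to 84.8%). The other positions were paired at 82.7 to 100% of the loci, with base 14 paired at all 52 and base 10 at 51. The kind of pair differed between the ends, since base 1 formed an A:U pair at 34 loci and a G:C pair at 4, whereas bases 18 and 19 formed G:C pairs at 30 and 28 loci. In many miRNA duplexes the strand with the less stable 5′ end is the one that is loaded. When the first 4 and last 4 of the 19 bases were scored with 3 for G:C, 2 for A:U, 1 for G:U and 0 for no pair, the 5′ end was weaker at 22 loci, stronger at 23 and equal at 7. Copies weigh on this count. By distinct sequences the 5′ end was stronger in 20 of 42, weaker in 14 and equal in 7, and 1 had loci of both kinds. No share over the whole list was counted. The abundant PotatoMir1005244514 had the higher score at its 5′ end (10 against 8), and PotatoMir1004878382 had the lower one (3 against 10).

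**Figure D4:**
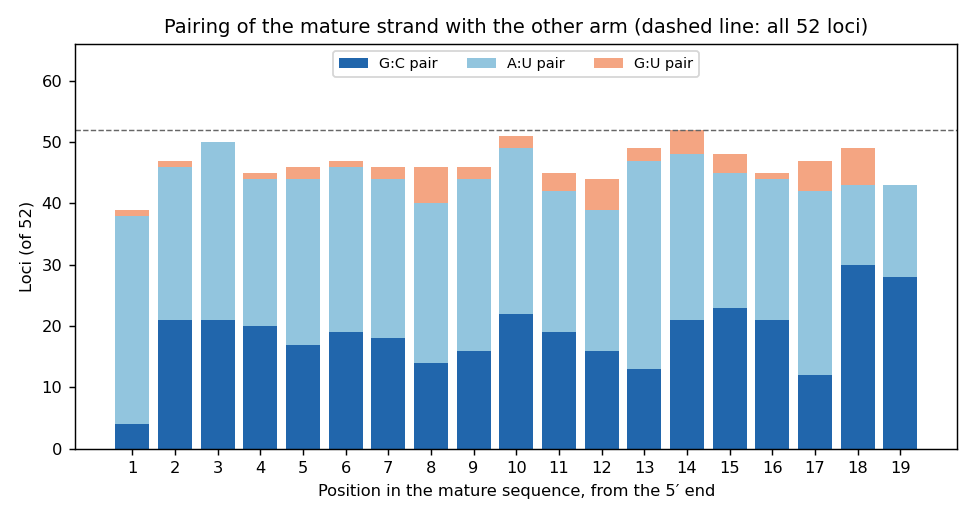
Number of the 52 member loci at which each mature base from position 1 to 19 was paired with the other arm, stacked by G:C, A:U and G:U pairs, with a dashed line at 52. Position 1 was paired at 39 loci with 4 G:C pairs, and position 14 was paired at all 52.

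Most members were listed as the mature sequence at a single locus. The genome itself was not searched, so a locus here means a listed one. There were 35 members with 1 locus and 7 with more than 1 (16.7%, 95% Wilson interval 8.32 to 30.6%), compared with 44 of 222 (19.8%) in the whole list and 8 of the 17 other 21 nt sequences. The 52 loci lay on 44 superscaffolds, 29 on the plus and 23 on the minus strand, and no superscaffold held more than 2 of them. They had 51 distinct precursor sequences. A read that fits several loci cannot be assigned to any of them, so a sequence with copies has 1 read number for all.

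PotatoMir1005244514 (miR162) had 2 copies, which are shown because the hairpins share both strands and differ mainly between them. Both are on the plus strand, on superscaffold PGSC0003DMB000000062 from 1030742 to 1030822 and on PGSC0003DMB000000180 from 147917 to 148008. Capitals mark the mature sequence.
first copy: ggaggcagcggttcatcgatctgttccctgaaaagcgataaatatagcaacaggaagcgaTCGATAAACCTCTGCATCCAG
second copy: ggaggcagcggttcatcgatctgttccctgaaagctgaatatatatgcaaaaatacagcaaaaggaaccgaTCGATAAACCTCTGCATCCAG
The star sequences were identical, each duplex had 16 of 19 bases paired and 3 mismatches, and the whole precursors were 83.7% identical with lengths of 81 and 92 nt. The energies were -34.10 and -36.30 kcal/mol.

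PotatoMir1005875292 (miR156) had the most copies of the members, with 4 loci. A pair of them were neighbours on the minus strand of PGSC0003DMB000000085, from 425003 to 425089 and from 427240 to 427326, with 2150 nt between the precursors and an identity of 94.3%. Another lay on the minus strand of PGSC0003DMB000000244 (664567 to 664644) and the last on the plus strand of PGSC0003DMB000000550 (107388 to 107480). Apart from the neighbours, pairs of precursors were 74.2 to 81.6% identical. All 4 hairpins had 18 of 19 bases paired with 1 mismatch and 1 bulge of 1 nt, and their energies lay between -43.60 and -37.20 kcal/mol.

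The 2 copies of PotatoMir1002894021, an unnamed sequence with 1130 reads, differed by 1 base over 71 nt (98.6% identical) and had the same energy of -23.30 kcal/mol. They lay on the minus strands of PGSC0003DMB000000081 (167535 to 167605) and PGSC0003DMB000000130 (1395798 to 1395868). At the other end of the scale were the 3 copies of PotatoMir1001772511, a sequence of the miR172 family, which acts on AP2-like transcription factors. It had 60 reads, and its precursors of 91, 104 and 124 nt were 64.5 to 73.1% identical, although each duplex had 17 of 19 bases paired and 2 mismatches.

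Another 2 members were each listed at a pair of loci on opposite strands of 1 place. PotatoMir1005712016, with 4 reads, had precursors on the minus strand of PGSC0003DMB000000204 from 124193 to 124276 and on the plus strand from 124198 to 124281, which overlapped by 79 nt. They are shown because the mature sequence is listed on both strands of the same place.
minus strand: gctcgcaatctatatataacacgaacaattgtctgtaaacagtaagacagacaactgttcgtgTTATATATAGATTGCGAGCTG
plus strand: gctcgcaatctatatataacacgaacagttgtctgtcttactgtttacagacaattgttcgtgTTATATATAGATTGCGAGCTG
All 19 bases were paired on both strands, and the energies were -55.50 and -58.90 kcal/mol. PotatoMir1003213190 (aTTGAATTttaaaacaagctt) had 1 read, and its precursors on PGSC0003DMB000000221, minus strand 198232 to 198395 and plus strand 198237 to 198400, were identical over 164 nt and overlapped by 159 nt. For both sequences the reads could come from either strand. In both, the other arm holds the reverse complement of mature bases 1 to 19, as a listing on both strands of 1 place implies. Their full pairing is therefore no separate finding.

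The last member with copies, PotatoMir1002922473 with 7 reads, had loci on the plus strands of PGSC0003DMB000000004 (1313824 to 1313941) and PGSC0003DMB000000007 (3479984 to 3480101). Both precursors were 118 nt and 72.9% identical, and their star sequences differed by 8 edits, the highest number among the copies of any member. The first had a duplex with 4 mismatches and no bulge, and the second had 1 mismatch and 3 bulges. It also had 6 relatives in the list with at most 2 mismatches over 15 or more bases on either strand, and 4 of them are shown with it.
PotatoMir1002922473: aTGCTGCTcggactcttcaaa
PotatoMir1002606682 (24 nt, 5 reads): aTATTGCTcggactcttcaaaaat
PotatoMir1005497229 (23 nt, 1 read): tGCTCGGActcttcaaaattgtc
PotatoMir1000503124 (24 nt, 7 reads, miR5303): aACATTTTtgaagagtctgagcaa
PotatoMir1001248178 (24 nt, 4 reads): aCAACATTtttggagagtccgagc
It matched PotatoMir1002606682 with 2 mismatches over 21 bases and PotatoMir1005497229 without mismatch over 17 bases. It was also close to the reverse complement of PotatoMir1001248178, with 1 mismatch over 16 bases, of PotatoMir1000503124, with 2 mismatches over 18 bases, and of PotatoMir1000971035 and PotatoMir1002618508, with 2 mismatches over 18 and 19 bases.

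Plant miRNAs pair with their targets over most of their length, and the seed was used here only to group sequences with a like 5′ part. The 42 members had 41 distinct seeds, and the only seed shared by 2 members was that of the miR477 family.
PotatoMir1003691513 (miR477): cCTCTCCCtcaagggcttctc
PotatoMir1001621391 (miR477): aCTCTCCCtcaaaggcttctg
Counted from the 5′ end of PotatoMir1003691513, they differed by C1A, G13A and C21G. They were neighbours on the plus strand of PGSC0003DMB000000010, from 3232101 to 3232168 and from 3232232 to 3232302, with 63 nt between the precursors. PotatoMir1003691513 had 248 reads (218 to 281) and PotatoMir1001621391 had 110 reads (90.4 to 133), so the intervals did not overlap. Both lay on the 5′ arm with a 22 nt star sequence, and the precursors were 64.8% identical.

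A close pair with different seeds belonged to miR408, which acts on mRNAs of copper proteins such as plantacyanin.
PotatoMir1005475194 (miR408): tGCACTGCctcttccctggct
PotatoMir1005473417 (miR408): tGCACAGCctcttccctggtt
The differences were T6A and C20T, counted from the 5′ end of PotatoMir1005475194. Both sequences were on the 3′ arm and on the plus strand of PGSC0003DMB000000277, from 638574 to 638644 and from 680412 to 680484, with 41767 nt between the precursors and an identity of 86.3%. The reads were 80 (63.4 to 99.6) and 27 (17.8 to 39.3). Each duplex had 15 of 19 bases paired and 4 mismatches, the highest number allowed.

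With the 2 members of miR398 and 1 of miR397, miR408 makes up the group of miRNAs known to act on copper proteins, Cu/Zn superoxide dismutases in the case of miR398 and laccases in that of miR397.
PotatoMir1005988456 (miR398): tTGTGTTCtcaggtcacccct
PotatoMir1005049111 (miR398): tATGTTCTcaggtcgcccctg
PotatoMir1003224131 (miR397): aTTGAGTGcagcgttgatgac
The miR398 sequences were offset by 1 base and differed by G3A and A16G within the shared 20 bases, in positions of PotatoMir1005988456. Their reads were 193 (167 to 222) and 101 (82.3 to 123), and the miR397 sequence had 137 reads (115 to 162). All 5 sequences of this group had 1 locus, and the miR397 sequence differed from the other 4 in its first base A and its 5′ arm.

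The members of miR171, a family that acts on mRNAs of HAIRY MERISTEM type GRAS proteins, were 3 sequences of the same core at different offsets, shown with the sequence that pairs with 1 of them.
PotatoMir1005435664 (miR171): tGAGCCGAaccaatatcactc
PotatoMir1005466259 (miR171): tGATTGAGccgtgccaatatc
PotatoMir1005891017 (miR171): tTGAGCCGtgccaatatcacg
PotatoMir1005068308 (miR171, not a member): tATTGGCCtggttcactcaga
PotatoMir1005466259 and PotatoMir1005891017 were identical over 18 bases at an offset of 3, and PotatoMir1005435664 differed from PotatoMir1005466259 by A8T and A9G over 17 bases, in its own positions. All 3 were listed as mature at 1 locus, on the 3′ arm. PotatoMir1005435664 had 213 reads (185 to 244) and PotatoMir1005466259 had 206 (179 to 236), which were not separated, and PotatoMir1005891017 had 29 (19.4 to 41.6). PotatoMir1005466259 was also identical to the star sequence at 1 locus of PotatoMir1005068308, so its reads could come from its own hairpin on PGSC0003DMB000000550 (218274 to 218351, minus strand) or from the other arm of that locus.

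Further members shared a seed or were close to sequences outside the group. PotatoMir1005931998 had the seed of both miR319 sequences of the list, the family that acts on TCP transcription factors, but no family name.
PotatoMir1005931998: tTGGACTGaagggttcccttc
PotatoMir1005931793 (miR319): tTGGACTGaagggagctccct
The first 13 bases were the same, and 6 of the last 8 bases differed, by T14A, T15G, C17T, T19C, T20C and C21T. PotatoMir1005931998 had 469 reads (428 to 513), against 29010 of PotatoMir1005931793, and its precursor lay on the plus strand of PGSC0003DMB000000026 from 1868465 to 1868641.

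PotatoMir1005875292 shared its seed with PotatoMir1003904305, a 20 nt sequence of miR156 with 107 reads, and was 3 differences from PotatoMir1005405793 with 273 reads. PotatoMir1001772511 was 2 differences from each of the other sequences of miR172, PotatoMir1004398855 (67 reads) and the 19 nt PotatoMir1001772509 (6 reads). PotatoMir1005480829 of the miR399 family (tGCCAAAGgagagttgcccta), which acts in phosphate supply through the PHO2 mRNA, had 8 reads. It differed from PotatoMir1003753189 (36 reads) by T1C, T14C and A21G and shared its seed. In all, 7 members were within 3 differences of another sequence of the list.

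A pair of different lengths was found without family names. PotatoMir1001266088 had 24 reads (15.4 to 35.7), and its precursor lay on PGSC0003DMB000000131 from 1312389 to 1312471, minus strand.
PotatoMir1001266088 (21 nt): aCAAGTAGacactcacgtcct
PotatoMir1005377406 (24 nt, 130 reads): tGAACAAGtagacacatacgtcct
The 24 nt sequence held the whole length of the 21 nt sequence at its 3′ end, with T13A and C14T in positions of the 21 nt sequence.

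The other named members had 1 locus each. PotatoMir1002667231 of the miR393 family (aTCATGCGatctcttcggaat), which acts on mRNAs of TIR1 type auxin receptors, had 83 reads (66.1 to 103) and lay on the 3′ arm on PGSC0003DMB000000154 from 172774 to 172849. PotatoMir1005329557, named miR530, had 18 reads (10.7 to 28.4) on the 5′ arm. PotatoMir1004878382 (miR4376) lay on the 5′ arm on the minus strand of PGSC0003DMB000000044 from 1355042 to 1355129, with 14 of 19 bases paired, 4 mismatches and a 20 nt star sequence.

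The unnamed PotatoMir1004465615 came after the miR162 and miR156 sequences in reads. It was the only member with G first, its precursor of 151 nt on the plus strand of PGSC0003DMB000000451 (340510 to 340660) was among the longest, and its energy of -30.53 kcal/mol per 100 nt was among the weakest. Of its 19 duplex bases 15 were paired. Below PotatoMir1002894021 and PotatoMir1005931998, the unnamed sequences with the most reads were PotatoMir1005034161 with 379 reads (342 to 419), on the 5′ arm with 18 of 19 bases paired, and PotatoMir1001331205 with 377 reads (340 to 417), on the 3′ arm with all 19 bases paired and 1 bulge. Their read numbers were not separated by counting error.

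The 6 members with 1 to 4 reads had 8 loci and 12 reads in all. Their precursors had a median of 88.5 nt, compared with 83 nt for the 19 unnamed members with at least 5 reads and 81 nt for the named members. In energy the 8 loci fell apart. The 4 loci on opposite strands at PotatoMir1005712016 and PotatoMir1003213190, whose arms are complementary by that listing, lay between -85.49 and -66.07 kcal/mol per 100 nt. The other 4 loci lay between -54.82 (PotatoMir1000755818) and -31.19 (PotatoMir1005296109). The medians of the unnamed members with at least 5 reads (-44.41) and of the named members (-44.23) lay within the range of these other 4 loci. At 7 of the 8 loci the duplex was within the limits.

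In its surroundings, 1 member had a sequence of another class nearby. PotatoMir1005034161 on PGSC0003DMB000000140 lay 1897 nt from the 24 nt sequence PotatoMir1002426404 on the same strand, and the precursors were 37.7% identical. Besides this pair and the miR477 neighbours, no other sequence of the list had a precursor within 20000 nt of a member. Genes at or near the precursors were not looked up.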

How the data were processed

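Small RNAs of 12 libraries from 4 groups were sequenced. The authors trimmed reads (cutadapt 1.1 per the labels), removed other RNA classes, aligned without mismatches to the DM superscaffolds with Bowtie, folded windows with RNAfold and predicted miRNAs with miRDeep-P, whose versions are not given in the sources used here. The deposited list holds, without normalization, the count of reads over all libraries identical to each mature sequence, and coordinates of PGSC superscaffolds. All 324 loci were read as deposited, with no read minimum.

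Precursors were folded with RNAfold 2.7.2 at 37 °C. The star sequence was the other precursor end, cut for a 2 nt overhang. Sequences were compared without gaps, overhanging bases counted as differences. Precursor identity is 100% less the edits per length of the longer. Intervals are 95% Wilson or exact Poisson (SciPy 1.17.1, Python 3.11.15, NumPy 2.4.6, Matplotlib 3.10.9). The duplex procedure was tested only on simulated hairpins with short loops and few mismatches or bulges, simpler than many of the members' hairpins.

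Members and lists were chosen with earlier results of these data known, and no test was made. Full values are given for the 6 members with the most reads, members with copies, close or seed-sharing members, star matches, and the first of those with the fewest reads. Other features singled out, such as the members outside the duplex limits, the copper group and the neighbours at 1897 nt, were chosen after their values were seen. Alternatives changed the counting unit, read minimum, fold temperature, G:U pairs, seed and distance limits. Family names came from the study's table of predictions. Genes were not annotated, as the reference gene table is on another assembly.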

Additional observations from a re-analysis of the deposited data

How the results depend on the processing

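No paired analysis was possible because the deposited list carries no values of single libraries. Of 31 alternative values of 12 results, 24 stayed within the interval or SD of the value in the report, or within 1.5 times a count or median, and 7 moved. Weighting by reads raised the share with T first from 52.4 to 82.7% and that of the 3′ arm from 61.5 to 79.5%. Without PotatoMir1005244514, an alternative chosen after seeing the data, these shares by reads were 57.2 and 49.4%. A minimum of 10 reads left 4 members with copies, against 7. The members' 32550 reads became 64188 when summed over loci and 13184 without PotatoMir1005244514. Folding at 20 °C moved the median energy per 100 nt from -44.68 to -60.35 kcal/mol, more than the SD of 12.1 over loci, while the duplex limits were met at 94.2% of loci. At most 2 differences left 3 members close to another sequence, against 7. Members with few reads are limited by counting error.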

Other observations

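The identifiers of the list followed the sequences. When the 222 distinct sequences were sorted by the number in their identifier, all 221 neighbouring pairs were in alphabetical order of the sequence. Sequences with A first had identifier numbers from 1000018741 to 1003398604, those with C first from 1003455977 to 1003951643, those with G first from 1004113062 to 1004658046, and those with T first from 1004793703 to 1006246194. What the numbers count is not stated in the list.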
